A study of Mus musculus with 6 samples.

Results

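The 6 genes described here supply skeletal muscle with quick energy or with oxygen, and they were followed in the tongues of mouse embryos: Ckm, Ckmt2, Pygm, Pgam2, Eno3 and Mb. They were taken as every probe set whose only listed gene symbol in the platform annotation is one of these names, which gave 8 of the 45101 probe sets on the array. Ckm and Mb had 2 probe sets each and the other 4 genes had 1 each. They are 6 of the 18193 genes with a named probe set, and 5 of them are among the 13645 genes tested, since Ckmt2 was too dim.

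The mutants carried the genotype Tgfbr2 fl/fl; Wnt1-Cre (3 arrays) and the controls Tgfbr2 fl/fl without Cre (3 arrays), although the titles of the controls say wildtype. All came from strain C57BL/6J at embryonic day 14.5, with sex not determined, and the labels call the material both tongue and tongue mesenchyme. Tgfbr2 is the gene of a receptor that TGF-beta ligands need for signalling, and Wnt1-Cre removes the floxed gene in the neural crest, which gives the tongue most of its connective tissue, while its muscle fibres come from mesoderm and keep the receptor gene. The study asked which genes depend on this signal in the crest cells while tongue muscle develops. No label says whether the arrays came from separate litters or whether embryos were pooled, so the p-values speak for the spread of these 6 arrays alone, which may be technical.

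Contracting muscle spends ATP faster than mitochondria can refill it. Creatine kinases (Ckm in the cytosol, Ckmt2 in the mitochondria of striated muscle) pass phosphate between ATP and creatine. Glycogen phosphorylase (Pygm is the muscle form) releases sugar phosphate from glycogen, and phosphoglycerate mutase (Pgam2) and enolase (Eno3) are late steps of glycolysis in their muscle forms. Myoglobin (Mb) binds oxygen in heart and in oxidative skeletal fibres. Several of these genes are classic targets of the MyoD family, which binds E-boxes, and of MEF2 factors, and their muscle forms replace forms made in most other tissues as muscle matures.

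The 250 bases upstream of the annotated start are shown for Pgam2 and Mb, the members that passed the test in opposite directions, and for Pygm, the lowest of all 6 by log2 difference. The sequences are from RefSeq (GRCm38.p6), are written 5′ to 3′ in the direction of the gene and end next to the start. They lie at chr11:5803797-5804046 (minus strand, Pgam2), chr19:6384158-6384407 (plus strand, Pygm) and chr15:77022728-77022977 (minus strand, Mb). Capitals mark E-boxes (CANNTG), the MEF2 motif and, in Pygm and Mb, a shared run described next.
Pgam2: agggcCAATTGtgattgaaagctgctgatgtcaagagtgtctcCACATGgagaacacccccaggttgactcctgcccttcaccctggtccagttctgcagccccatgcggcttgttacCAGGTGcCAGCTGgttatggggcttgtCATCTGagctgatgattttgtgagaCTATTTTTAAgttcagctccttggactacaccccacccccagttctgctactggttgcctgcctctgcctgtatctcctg
Pygm: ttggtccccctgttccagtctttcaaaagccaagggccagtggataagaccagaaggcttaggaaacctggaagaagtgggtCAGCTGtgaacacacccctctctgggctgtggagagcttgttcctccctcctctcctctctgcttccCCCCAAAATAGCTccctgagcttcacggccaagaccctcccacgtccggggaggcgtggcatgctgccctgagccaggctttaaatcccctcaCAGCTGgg
Mb: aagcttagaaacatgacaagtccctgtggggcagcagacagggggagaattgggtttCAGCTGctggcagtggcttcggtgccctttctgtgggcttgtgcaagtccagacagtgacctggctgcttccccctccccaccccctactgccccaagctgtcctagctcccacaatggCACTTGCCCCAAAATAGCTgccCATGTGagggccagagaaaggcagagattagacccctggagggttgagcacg

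The RefSeq table matched all 6 genes and gave 8 windows, since Mb has 3 starts, of which start 2 has a window that overlaps the one shown. Both strands were searched for the E-box, the TATA box TATAAA, the MCAT motif CATTCC, the MEF3 motif TCAGGTT and the MEF2 motif. All 8 windows held an E-box, as did 66.2% of the 32851 windows of this length in the table. Pgam2 held 5 E-boxes and the MEF2 match CTATTTTTAA, 80 to 71 bases before its start. A MEF2 match stood in 2.92% of all windows and in 1 of the 8. An MCAT match was found in Eno3 alone (12.6% of all windows), and neither TATAAA (12.4%) nor TCAGGTT (3.49%) was found in any of the 8. The longest run shared by the windows of Pygm and Mb was CCCCAAAATAGCT, 13 bases that began 101 bases before the start of Pygm and 68 before that of Mb. It stood in 2 of the 32851 windows, these 2, and in Mb it adjoins an E-box. It was looked for after the sequences and the values had been seen. These matches describe letters and not bound sites, and a missing match says nothing about the factor.

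The values are log2 expression, so a difference of 1 is a doubling. Mutant array 1 stood apart: it correlated with the other arrays at 0.966 to 0.978 over the tested genes, whereas the other 5 reached 0.992 or more with their nearest array. The level of Xist alone put mutant arrays 1 and 3 and control array 1 in one sex and the remaining arrays in the other. All 8 skeletal muscle marker genes (among them Acta1, Myh3, Actn2 and Ryr1) were above the value under which genes were left out, as a muscle-bearing tissue requires. In whole tongue, fewer muscle cells and less RNA per muscle cell cannot be told apart.

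In the mutants Pgam2 was lower and Mb higher, and each was called in the fit across all genes (limma, Benjamini-Hochberg adjusted p under 0.05). Pgam2 fell by 0.72 on the log2 scale, with a level 1.65 times higher in the controls, and Mb rose by 0.94, a 1.92-fold increase. Pygm and Ckmt2 had lower values in all 3 mutants than in any control without passing the test, and Eno3 and Ckm had overlapping groups. In the background, 0.821% of the 13645 tested genes were called lower and 1.32% higher, 2.14% in all, against 1 lower and 1 higher among the 5 members tested. Groups that did not overlap were found for 11.5% of tested genes with lower mutants and for 13.6% with higher mutants, 25.1% in all, and for 2 and 1 of the 5 members. With Ckmt2 the counts were 3 and 1 of 6, against 9.71% and 12.4% of all 18193 named genes, 22.1% in all. Both calls were lost when control array 2 or control array 3 was left out, with 16 and 19 calls among all genes in those fits.

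**Figure D1:**
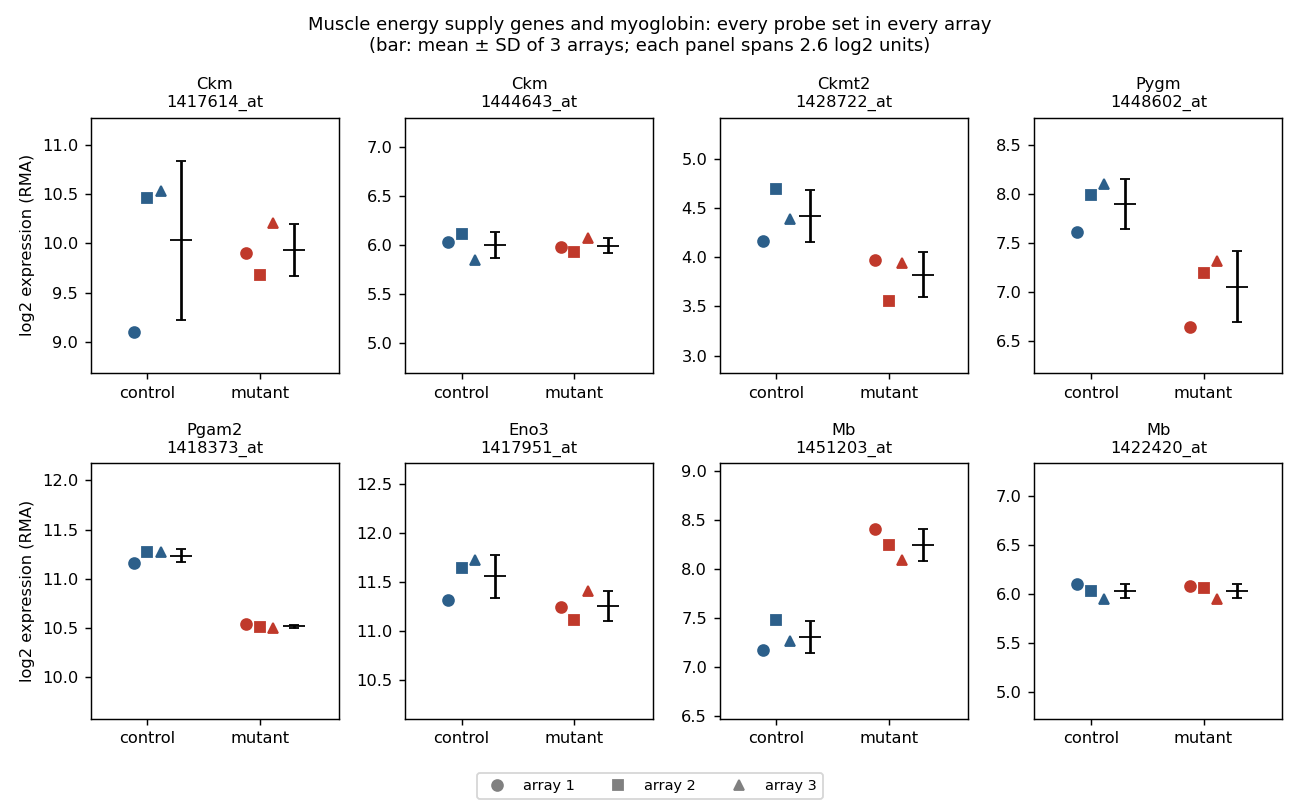
Log2 expression of the 8 probe sets in the 3 control arrays (blue) and the 3 mutant arrays (red), with the array number as the symbol and the mean ± SD as a bar; every panel spans the same number of log2 units. The mutants lie below all controls for Pgam2, Pygm and Ckmt2 and above them for the brighter Mb probe set, while the dimmer Mb and Ckm probe sets are level.

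Ckm, the cytosolic creatine kinase of muscle, was 9.10, 10.46 and 10.54 in control arrays 1, 2 and 3 and 9.91, 9.68 and 10.21 in mutant arrays 1, 2 and 3. Control array 1 was the lowest of the 6, and all mutants lay between it and the other controls. Their mean log2 difference was -0.10 (95% interval -0.96 to 0.76, limma adjusted p = 0.915). It rested on control array 1, for without that array the difference was -0.57 (adjusted p = 0.243). It was above 0 without mutant array 2, control array 2 or control array 3 (0.025, 0.11 and 0.15) and with sex as a covariate (0.068). The dimmer Ckm probe set lay between 5.85 and 6.12 in all arrays, with a difference of -0.0049 (95% interval -0.23 to 0.23). Whether these probes reach the transcript made in embryonic tongue was not tested.

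Ckmt2, the sarcomeric mitochondrial creatine kinase, was read by 1 dim probe set. Its values were 4.17, 4.70 and 4.39 in the controls and 3.97, 3.56 and 3.94 in the mutants, all under the filter value of 5.17, a range in which small array signals tend to be squeezed together. All mutants lay below all controls, but the highest mutant and the lowest control were 0.20 apart. In the limma fit of all 18193 genes with no filter, the difference was -0.60 (standard error 0.17, adjusted p = 0.147), in a fit that called 1.7% of genes (1.03% higher and 0.671% lower).

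Pygm, the glycogen phosphorylase of muscle, was 7.61, 7.99 and 8.10 in the controls and 6.65, 7.20 and 7.32 in the mutants. All 3 mutants were below all 3 controls, and mutant array 1 was the lowest. The difference was -0.84 (standard error 0.20, 95% interval -1.32 to -0.37), with a limma adjusted p of 0.0972. With the replicate number as a block it passed (adjusted p = 0.0125), in a fit that called 3.59% of genes (2.07% higher and 1.52% lower) and 3 of the 5 members tested. The labels do not say what this number marks and other pairings were not compared, a limit on every block result given below. Without mutant array 1 the Pygm difference was -0.64 (adjusted p = 0.0630).

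Pgam2, the phosphoglycerate mutase of muscle, had the tightest values of the 6 genes. The controls gave 11.16, 11.28 and 11.27 and the mutants 10.53, 10.51 and 10.50. Neither group spread far, and the gap between them was 0.63 against a range of 0.033 among the mutants and 0.11 among the controls. The means were 11.24 ± 0.063 and 10.51 ± 0.018 (SD, n = 3 each), a difference of -0.72 (standard error 0.083, limma adjusted p = 0.0103). The difference stayed between -0.70 and -0.76 in the 6 fits that left out 1 array. The adjusted p was 0.0892 without control array 2 and 0.0831 without control array 3. Mutant array 1 was no lower than mutant arrays 2 and 3.

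Eno3, the beta-enolase of muscle, was 11.31, 11.64 and 11.73 in the controls and 11.25, 11.11 and 11.41 in the mutants. The groups overlapped, since mutant array 3 was above control array 1. The difference was -0.30 (95% interval -0.62 to 0.016, limma adjusted p = 0.321).

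Mb, myoglobin, moved the other way. Its brighter probe set was 7.18, 7.48 and 7.26 in the controls and 8.41, 8.24 and 8.09 in the mutants. All mutants were above all controls by at least 0.61. The means were 7.31 ± 0.16 and 8.25 ± 0.16 (SD, n = 3 each), a difference of 0.94 (standard error 0.12, limma adjusted p = 0.0154). The dimmer probe set did not share the rise: it was 6.10, 6.03 and 5.95 in the controls and 6.09, 6.06 and 5.95 in the mutants. Its difference was 0.0026 (95% interval -0.20 to 0.21), which leaves out the size seen on the brighter one. In the limma fit of every probe set 2 of the 8 were called, against 0.748% of all (0.422% higher and 0.326% lower). There the brighter probe set of Mb kept its call (adjusted p = 0.0237), as did that of Pgam2 (0.0148). Averaging both probe sets of Mb gave 0.47 (limma adjusted p = 0.0425). RefSeq lists 3 starts for Mb, and which transcripts each probe set reads was not tested. The Mb call was also lost without mutant array 2 (adjusted p = 0.0653) and without control array 1 (0.0574), with differences of 0.94 and 0.87. It was 1.03 (limma adjusted p = 0.0630) without control array 2 and 0.92 (0.103) without control array 3.

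The forms of these enzymes that other tissues make, and 2 globin relatives of Mb, were compared with the members within the same arrays. Of these 9 genes, Eno1 had no probe set with a single symbol and Eno2 was under the filter. All 7 tested, the 2 globins included, had differences above 0, and 4 had all mutants above all controls. Pygl, the liver form of glycogen phosphorylase, rose by 0.85 (standard error 0.11, limma adjusted p = 0.0166), with 7.70, 7.68 and 7.70 in the controls and 8.44, 8.76 and 8.41 in the mutants. Its call was lost without control array 1, 2 or 3 (limma adjusted p = 0.0643, 0.109 and 0.105). Ckb, the brain-type creatine kinase, was 9.64, 9.67 and 9.53 in the controls and 9.87, 10.65 and 10.52 in the mutants (0.73, adjusted p = 0.125). Pygb, the brain form of the phosphorylase, gave 0.19 and Pgam1, the widely made mutase, gave 0.23 (adjusted p = 0.378 and 0.343). Ckmt1, the ubiquitous mitochondrial creatine kinase, differed by 0.075. The nerve enolase Eno2 gave 0.24 in the fit with no filter (adjusted p = 0.336). Cytoglobin (Cygb) and neuroglobin (Ngb), relatives of myoglobin, differed by 0.11 and 0.050.

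Each member's change was then set against that of 1 such gene, array by array and relative to the control means. In 5 pairs compared, Pgam2 against Pgam1 gave -0.95 ± 0.18, Pygm against Pygb -1.04 ± 0.33 and Ckmt2 against Ckmt1 -0.67 ± 0.21 in the mutants (SD, n = 3). Mb against Cygb gave 0.82 ± 0.38. These 4 had all mutants on one side of all controls, with an exact 2-sided permutation p of 0.1, the smallest that 3 against 3 arrays allow, and 0.125 adjusted over the 5 pairs. Ckm against Ckb gave -0.84 ± 0.51, with 1 mutant below all controls (exact permutation p = 0.3), and ranged from -1.31 without control array 1 to -0.54 without control array 3. With probe sets averaged, Mb against Cygb gave 0.36.

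**Figure D2:**
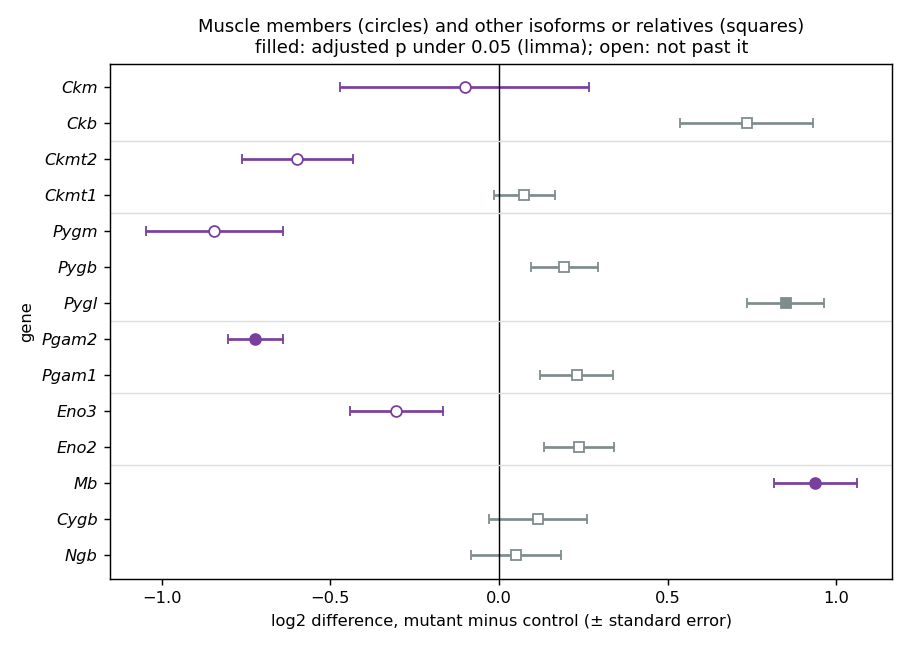
Log2 difference, mutant minus control, with its standard error, for the 6 members (circles) and the measured forms or relatives of each (squares); filled symbols passed an adjusted p of 0.05, and Ckmt2 and Eno2 are from the fit with no filter. The muscle forms of the enzymes lie at or left of 0, between -0.84 and -0.10, and the other forms right of it, with Pygl at 0.85 and Mb at 0.94.

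The sarcomere genes, which hold no member, served as a muscle reference in each array. Their differences ran from -1.68 (Actn3) to 0.22 (Tnnc1), and whether their median follows the amount of muscle RNA was not tested. Of 29 tested, 26 had a negative difference and 1 was called, lower: Actn3, the fast-fibre alpha-actinin, fell by 1.68 (limma adjusted p = 0.0105; 0.0544 without mutant array 2, 0.0702 and 0.0701 without control arrays 2 and 3). Their median difference was -0.61, against 0.016 over all tested genes, and -0.43 without mutant array 1. Per array the sarcomere median relative to the control mean was -0.20, 0.10 and 0.10 in the controls and -0.88, -0.39 and -0.30 in the mutants. The next smallest p-values were those of Myl1 (-0.55), Tcap (-0.49) and Tnnc2 (-0.64), none called, though Myl1 and Tnnc2 passed with the replicate block (adjusted p = 0.0386 and 0.0259). That fit called 10 of the 29, all lower, and array quality weights called 11.

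With this median subtracted in each array, Mb stood 1.98, 1.32 and 1.09 above the control mean in mutant arrays 1, 2 and 3. The difference was 1.46, against 0.94 without the subtraction, and 0.95 with the probe sets of each gene averaged. The sarcomere median was lower in the mutants, so the subtraction raised the difference of every member, that of Ckm from -0.10 to 0.42. Pygm stood -0.38, -0.32 and -0.27 from the control mean, below all controls. For both the exact 2-sided permutation p was 0.1, the smallest possible, and 0.3 adjusted over the 6 members. Pgam2 gave 0.17, -0.34 and -0.43, a mean difference of -0.20 with mutant array 1 above all controls (exact permutation p = 0.4). Ckm gave 0.42, Eno3 0.22 and Ckmt2 -0.074 (exact permutation p = 0.4, 0.4 and 0.8). These also moved with single arrays. Ckm was 0.079 without control array 1 and 0.26 without mutant array 1. Eno3 was 0.046 without mutant array 1 and 0.36 without mutant array 2. Ckmt2 ranged from -0.33 without mutant array 1 to 0.13 without mutant array 2. The Pgam2 value rested on mutant array 1: it was -0.39 without that array, -0.13 without mutant array 2 and -0.083 without mutant array 3, and -0.11 without control array 1. With a smallest possible p of 0.1, this test says little on whether Pgam2 and the sarcomere genes differed.

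**Figure D3:**
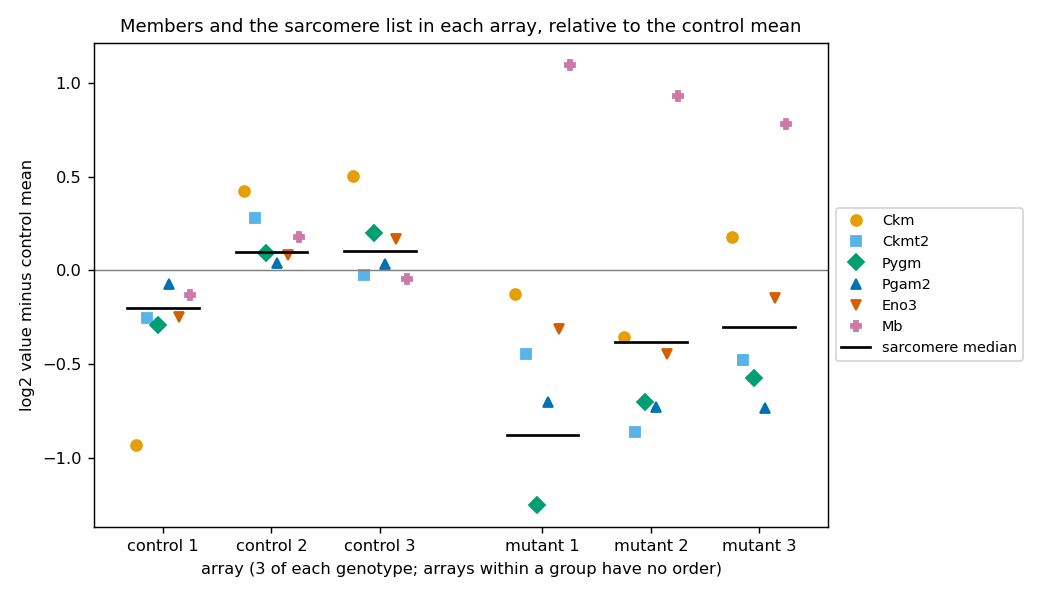
Each member's log2 value minus its control mean in the 6 arrays, with the median of 29 sarcomere genes as a black bar. Mb lies far above the bar in all 3 mutants, Pygm lies below it, Pgam2 keeps nearly the same value in the 3 mutants, and Ckm in control array 1 is the lowest control point.

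The rest of the pathway was described from lists. In the creatine and adenylate shuttle 9 of 11 tested genes were negative (median -0.13, or -0.059 without mutant array 1) and none was called by limma, where 4 had an unadjusted p under 0.05. Those were Ampd1, the AMP deaminase of muscle (-1.14, adjusted p = 0.0548), Gatm, which makes the creatine precursor (-0.82, 0.0778), Ckb, and Ampd3, an AMP deaminase of other tissues (-0.43, 0.262). Ampd1 was 6.32, 6.97 and 7.21 in the controls and 5.51, 5.69 and 5.89 in the mutants. It passed with the replicate block (adjusted p = 0.0115), as did Gatm (0.0265). An unadjusted p near 0.05 was common among all genes: Eno3, at a limma p of 0.0597, ranked 2543 of the 13645 tested. The counts at an unadjusted p under 0.05 given below for other lists have the same background.

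Other glycogen genes had no common direction. Of 14 tested, 8 were negative and 6 positive, with a median of -0.027, and Pygl was the one call. Ugp2, which makes the sugar donor for glycogen, gave -0.24 (adjusted p = 0.227), Phka1, the muscle regulatory subunit of phosphorylase kinase, gave -0.40 (0.277), and Ppp1r3c, a glycogen-targeting phosphatase subunit, gave 0.42 (0.279).

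Of 18 tested glycolysis genes other than Pgam2 and Eno3, 12 were positive, with a median of 0.16, where 7288 of all 13645 tested genes were positive. The list's median was 0.11, 0.33 and -0.0053 in mutant arrays 1, 2 and 3 against -0.013, -0.0089 and 0.034 in the controls, so mutant array 3 lay within the controls. In this list 2 genes were called, both higher. Aldoc, the aldolase of brain, rose by 1.25 (standard error 0.23, limma adjusted p = 0.0396), from 6.78, 6.25 and 6.96 to 8.18, 8.01 and 7.54. Slc2a1, the glucose transporter GLUT1, rose by 0.85 (standard error 0.13, adjusted p = 0.0271), from 11.05, 11.15 and 11.11 to 12.22, 11.92 and 11.72. The Aldoc call was lost when its probe sets were averaged (0.63, limma adjusted p = 0.0931), and both were lost with sex as a covariate (0.0983 and 0.0697) and without mutant array 2 or any 1 control array (0.0890 to 0.146). Ldhb, the heart form of lactate dehydrogenase, gave 0.34 (adjusted p = 0.255) and Slc16a1, a lactate transporter, gave -0.26 (0.201).

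Mitochondrial and fatty acid genes had a median of -0.045 over 24 tested, 15 of them negative and none called by limma. An unadjusted p under 0.05, common among all tested genes as stated above, was found for 5. Fabp3, the fatty acid binding protein of heart and oxidative muscle, was 9.62, 9.95 and 9.998 in the controls and 9.09, 9.31 and 9.22 in the mutants. Its difference of -0.65 had an adjusted p of 0.0521 (0.0289 with the block), opposite in sign to that of Mb. Acadl, a fatty acid dehydrogenase, gave -0.37 (0.119). Ppargc1b, a coactivator of mitochondrial genes, gave -0.70 (0.164; 0.0305 with the block), and Lpl, lipoprotein lipase, gave 0.72 (0.179; 0.0442 with the block).

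**Figure D4:**
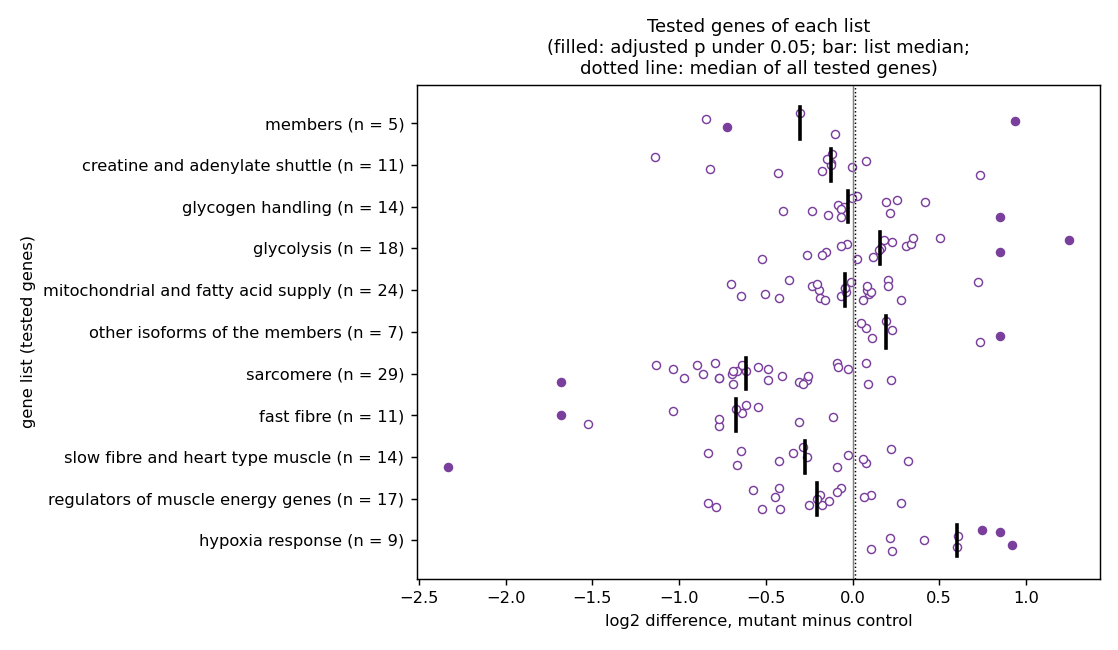
Log2 difference, mutant minus control, of each tested gene in the member list and 10 further lists; filled points passed an adjusted p of 0.05, bars are list medians and the dotted line is the median of all tested genes. Glycolysis and hypoxia genes have medians above 0 (0.16 and 0.60) and the muscle lists below it, with the sarcomere at -0.61 and fast fibres at -0.67. Some genes stand in several lists, among them many fast-fibre and sarcomere genes.

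Other genes of slow or heart muscle, of which Myh7, Tnnt1, Tnnt2, Tnni1, Tnnc1 and Actc1 are also in the sarcomere list, went both ways. Of 14 tested, 10 were negative and 4 positive, with a median of -0.28 (-0.18 without mutant array 1). In 7 all mutants lay below all controls, and in 2, Myl3 (0.32) and Tnnc1 (0.22), above them; these were named after their values were seen, and neither was called. The list held 1 call, or 3 with the replicate block: Ankrd1, a muscle ankyrin repeat gene, fell by 2.33 (limma adjusted p = 0.00911; 0.0501 and 0.0545 without control arrays 2 and 3). Myl2, the slow and ventricular regulatory light chain, gave -0.83 (0.113), and Myoz2, a calcineurin-binding Z-disc gene of slow fibres and heart, gave -0.43 (0.119). All 11 tested fast-fibre genes were negative, with a median of -0.67. Of these, Myh1, Myh8, Tnnt3, Tnni2, Tnnc2, Mylpf, Myl1 and Actn3 are also in the sarcomere list, so the lists are not independent. Actn3, the sarcomere call given above, was the one call, against 6 calls with the replicate block and 8 with array quality weights. Casq1, the calcium store of fast fibres, gave -1.53 (0.0621; 0.0191 with the block). Of 17 tested regulators of muscle energy genes 14 were negative (median -0.21, or -0.0997 without mutant array 1), and none was called by limma, where 4 had an unadjusted p under 0.05. These were Myf6, the MyoD-family factor of mature fibres (-0.83, adjusted p = 0.0682), Six4 (-0.57, 0.121), Nfatc1, a calcineurin-dependent factor of slow fibres (-0.78, 0.285), and Mef2c (-0.45, 0.292).

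Hypoxia response genes had the direction of Mb. All 9 tested were positive, with a median of 0.60 (0.38 without mutant array 1), 7 had all mutants above all controls, and 3 were called higher: Ndrg1 (0.92, limma adjusted p = 0.00911), Egln3 (0.74, 0.0238) and Slc2a1. Bnip3, a mitochondrial target of hypoxia, gave 0.61 (0.124). The list's median relative to the control mean was 0.84, 0.52 and 0.29 in mutant arrays 1, 2 and 3, where Mb was 1.10, 0.93 and 0.78. The call of Ndrg1 was lost without control array 2 or 3 (limma adjusted p = 0.0555 and 0.0556), and that of Egln3 without mutant array 2 or any 1 control array (0.0737 to 0.121). This direction was not particular to hypoxia genes, since all tested epithelium, macrophage and Schwann and nerve genes were also positive, as given below. The epithelium medians were 0.90, 0.63 and 0.27 in mutant arrays 1, 2 and 3, near those of the hypoxia list. Of all 13645 tested genes, 7288 were positive. The part of any of these lists in the result for Mb was not tested.

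By the root mean square difference over the 6 arrays, with each gene taken relative to its control mean, the genes most like Mb were Wnt10a, Slc2a1 and Lama3 (0.059, 0.10 and 0.11 log2 units), all called higher. Those most like Pgam2 were Ntn1, Msc and Hspb3 (0.076, 0.097 and 0.10), all called lower, with differences between -0.61 and -0.66. Such neighbours have nearly the same difference by construction, so their calls add nothing to those of Mb and Pgam2. Pygm was nearest to Bmp5, Srpk3 and Aldh1l2 (0.036, 0.049 and 0.054), none of which was called. Ckmt2 lay nearest to Hacd1, Cmya5 and Ugcg (0.10, 0.11 and 0.11). For Eno3 they were Htra3, Tubb6 and Cacng6 (0.046, 0.054 and 0.057), but 275 genes lay within 0.15 of it. For Ckm they were Kcnq1ot1, Cd44 and Ttc14 (0.25, 0.28 and 0.30), and no gene lay within 0.15. Among the members, Ckmt2 and Pgam2 were the most alike (0.20) and Pygm and Mb the least (1.30).

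Markers of other tissues also differed between the groups, and their part in the results for the members was not tested beyond these values. Among heart chamber markers Myh6 and Nkx2-5 fell by 1.26 and 1.09 (limma adjusted p = 0.00792 and 0.0188) and Nppb gave -0.56 (0.194). The others, Nppa, Myl7, Tbx20 and Ryr2, were under the filter value. All 7 epithelium genes were positive and none was called by limma (5 with an unadjusted p under 0.05), with medians of 0.27 to 0.90 in the mutants against -0.034 to 0.096 in the controls. Of these Krt15, Krt14, Trp63 and Krt5 had the smallest p (adjusted p = 0.0595, 0.0605, 0.108 and 0.170). Schwann and nerve genes were positive in 5 of 5 (0.72 to 1.32 in the mutants, -0.16 to 0.20 in the controls), and Stmn2 was called higher. Macrophage genes were positive in 6 of 6 (0.48 to 0.78 against -0.11 to 0.13), with C1qa, C1qb and C1qc called. The others were not called: Cd68 gave 0.54 (limma adjusted p = 0.185), Adgre1 0.19 (0.453) and Csf1r 0.020 (0.969). For Adgre1 and Csf1r the groups overlapped. Endothelium genes were negative in 5 of 6, with -1.004 in mutant array 1 and -0.14 and -0.11 in mutant arrays 2 and 3 against -0.055 to 0.086. Smooth muscle genes gave -0.40 to -0.14 against -0.17 to 0.10 and red cell genes -0.28 to -0.089 against -0.17 to 0.23, with no call by limma among their 4 and 5 tested genes (2 and 1 with an unadjusted p under 0.05). Of 4 cartilage genes Col9a1 was called higher (0.87, median of the list -0.085). Of 2 fat cell genes tested Fabp4 was called lower (-2.73), while Cidea gave -0.087 (limma adjusted p = 0.789). Adipoq and Ucp1 were under the filter value, and Plin1 was not measured. Each call of a marker named here was lost without control array 2 or without control array 3 (limma adjusted p = 0.0545 to 0.226). The calls of Stmn2 and C1qc were each lost in 5 of the 6 fits that left out 1 array. With sex as a covariate, macrophage calls fell from 3 to 1, and those of Stmn2 and Col9a1 were lost. The Col9a1 call was also lost with probe sets averaged. Among the 8 skeletal muscle markers all were negative and none was called by limma, with 3 at an unadjusted p under 0.05 (median -0.68, or -0.32 without mutant array 1). Acta1, Myh3, Actn2 and Ttn of these are also in the sarcomere list. With the replicate block, calls numbered 2 among the epithelium genes, 3 among the Schwann and nerve genes, 1 among the smooth muscle genes and 2 among the skeletal muscle markers.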

How the data were processed

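RNA of 6 tongue samples was measured on Affymetrix arrays, and the deposited values are log2 expression per probe set after RMA, per the submitters' processing notes, with version not given in the sources used here. RMA had already made the arrays comparable, so no further scaling was applied. Array number, not read depth, limits the precision.

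A gene was read by its single-symbol probe set with the highest mean, and the lowest 25% of genes (mean under 5.17) were left out. Mutants were compared with controls by limma (3.58.1 in R 4.3.3), with Benjamini-Hochberg adjustment over all genes tested and a threshold of 0.05. Ckmt2, under that limit, came from a fit with no filter. Differences relative to sarcomere genes or to another isoform or relative were tested by exact 2-sided permutation. Plots used Python 3.11.15 and matplotlib 3.10.9. The limma step was tested on simulated data.

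Same-numbered mutant and control arrays deviated together weakly (r = 0.309, 0.105 and 0.206), so a fit with the title number as a block was run as an alternative. Other pairings were not compared, and the labels do not say what the numbers mark. The main fit and the permutation tests used no pairing. The members and lists were chosen with earlier results of these data known. Genes named are the members, their other isoforms or relatives, up to 4 genes per list with the smallest p, and the 3 genes most like each member. Alternatives changed the filter, probe set choice, scaling, variance model, array weights, block, sex and each array. A gene that shares its probe set with others, such as Eno1, was not analysed here.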

Additional observations from a re-analysis of the deposited data

How the results depend on the processing

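The number of genes called, 292, was 151 when the filter removed the dimmer 50%, 1034 with array quality weights, 490 with the replicate block, 135 with sex as a covariate and 549 at an adjusted p under 0.1. Leaving out 1 array gave 16 to 670 calls among all genes and 0 to 2 among the members. Under array quality weights Ckmt2 (-0.75) and Pygm (-0.77) passed, and under the replicate block Pygm passed (-0.84, limma adjusted p = 0.0125). The block changed no other call among the members. Ckm turned to 0.068 with sex as a covariate and ranged from -0.57 to 0.15 with 1 array left out. Pgam2 ranged from -0.76 to -0.70 and Mb from 0.86 to 1.03. With probe sets averaged, Mb gave 0.95 relative to the sarcomere genes and 0.36 relative to Cygb. Of the 5 members above the filter, 3 were called with array quality weights, with the replicate block and at an adjusted p under 0.1. Ckmt2, taken from the fit with no filter, is outside these counts. Pgam2 was called in 14 of 16 settings and Mb in 12 of 16. The causes of these shifts were not tested, and 3 arrays a group limit all of them.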
